A study of Arabidopsis thaliana with 36 samples.

Results

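Camalexin is the main indole phytoalexin of Arabidopsis, a defence compound made from tryptophan after attack by microbes. The 5 genes described here encode the cytochrome P450 enzymes of its core route: CYP79B2 (AT4G39950), CYP79B3 (AT2G22330), CYP71A12 (AT2G30750), CYP71A13 (AT2G30770) and PAD3 (AT3G26830). They were taken by locus from tables of 28775 loci, and all 5 were found. The group was chosen by pathway with differences of these counts between mutants and wild type in view, and which comparison weighed in the choice is not recorded. Their levels, differences and counts of calls are therefore given as a description and not as a test.

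Transcript counts came from 4 plant organs (source leaves, sink leaves, flowers and rosette buds) in 3 genotypes: wild-type plants of the Col-0 ecotype and plants labelled as triple and as quintuple bZIP mutants. Each genotype and tissue had 3 biological replicates, which gave 12 groups and 36 libraries. The series concerns S1 basic leucine zipper (bZIP) factors, a small group of regulators of carbon and nitrogen use, and asks how they share out both between apical and lateral organs. The labels name neither the mutated genes nor the alleles, give no treatment, and state that all plants grew on soil in long days, with 16 h of light and 8 h of darkness, until the primary inflorescence began to flower. Plant age in days, the position of the leaves and the number of plants per library are not stated in the labels.

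In the pathway as it is known, CYP79B2 and CYP79B3 act in parallel at the first step and turn tryptophan into indole-3-acetaldoxime, an intermediate shared with the indole glucosinolates. CYP71A13, with its close relative CYP71A12, turns the oxime into indole-3-acetonitrile. After conjugation with glutathione, PAD3 (CYP71B15) carries out the last step and releases camalexin. CYP71A12 is also known for a second branch from the same oxime, which leads to indole-3-carboxylic acid and to cyanogenic indole compounds. Transcripts of these genes are known to accumulate after infection, and those of CYP71A12, CYP71A13 and PAD3 to be low in unchallenged leaves.

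Among the 5 genes the CYP71A pair had the largest fitted differences from wild type in both directions, so its upstream sequences are shown. In the RefSeq annotation of TAIR10.1, CYP71A12 lies at chr2:13099486-13101371 and CYP71A13 at chr2:13109909-13111988, both on the minus strand with 4 exons. They are 8537 bases apart with 1 protein-coding gene between them. Both models begin at an ATG and have a coding length of 1494 bases, so CPM of these genes can be compared without a length correction. The coding sequences are 90.4% identical, and 8.67% of their 31-base stretches are shared, so the deposited counts may split some reads between them with error. The other members lie at chr4:18525042-18527602 (CYP79B2, plus strand, 3 exons), chr2:9488413-9491404 (CYP79B3, plus strand, 2 exons) and chr3:9887917-9889791 (PAD3, plus strand, 2 exons). CYP79B2 and CYP79B3 transcripts are 78.4% identical and share under 0.1% of their 31-base stretches.

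The stretches from 250 to 41 bases before each start are printed in the direction of the gene, at chr2:13101412-13101621 for CYP71A12 and chr2:13112029-13112238 for CYP71A13. The 40 bases next to the start are left out because the models list no UTR. Capitals mark the core of the W-box (TTGAC, or GTCAA on the other strand), which WRKY factors bind, and ACTCAT, read on the other strand as ATGAGT, an element through which S1 bZIP factors are known to act on proline-responsive genes.
CYP71A12 upstream: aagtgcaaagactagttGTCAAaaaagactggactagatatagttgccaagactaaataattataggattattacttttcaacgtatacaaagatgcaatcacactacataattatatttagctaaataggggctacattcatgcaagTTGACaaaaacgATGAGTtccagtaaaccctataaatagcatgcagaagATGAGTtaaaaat
CYP71A13 upstream: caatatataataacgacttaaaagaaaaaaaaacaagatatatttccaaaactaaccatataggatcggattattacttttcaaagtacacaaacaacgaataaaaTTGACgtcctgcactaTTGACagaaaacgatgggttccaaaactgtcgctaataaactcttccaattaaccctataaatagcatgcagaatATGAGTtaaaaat
Over the full 250 bases the sequences aligned with 179 identical bases of 240 (74.6%). Both windows hold 2 W-box cores. ACTCAT stands 2 times before CYP71A12, at 90 to 85 and 53 to 48 bases before the start, and 1 time before CYP71A13, at 53 to 48 bases. Each window also holds 1 ACGT core, the centre of many bZIP sites, which before CYP71A13 overlaps a W-box core. Of 27443 windows of this length in the genome, 44.9% hold a W-box core, 44.1% an ACGT core, 12.3% ACTCAT and 6.49% the G-box CACGTG, all counted on both strands. None of these letters was found in the windows of CYP79B2, CYP79B3 and PAD3. The models of those genes do not begin at an ATG, so their windows are placed differently from those of the CYP71A pair and are not compared with them. A match describes the sequence only.

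Library totals lay between 18158887 and 25124369 counts. Levels are counts relative to the library total (CPM) scaled with the trimmed mean of M-values (TMM) over all 36 libraries, given as mean ± SD with n = 3 per group. Marker lists were set beside the tissue labels, and no list was made to separate sink from source leaves. The summed level of 5 flower markers was 706 to 814 CPM in wild-type flowers and at most 1.92 CPM in wild-type leaves. That of 4 bud markers was 297 to 375 CPM in wild-type buds. In wild type it was 35.6 to 44.9 CPM in flowers, 44.4 to 59.1 in sink leaves and 54.0 to 60.3 in source leaves. DRM1 made up most of the bud sum, with a mean of 299 CPM in wild-type buds. All 5 S1 bZIP loci had counts in every library, the lowest being 0.553 CPM for bZIP44 in a source leaf library of the quintuple mutant, and counts per locus cannot check mutants whose alleles are not named. Both mutants were compared with the same wild-type libraries of each tissue, so the 2 sets of differences share their controls.

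In wild type the first-step genes were at higher CPM in leaves than in flowers. CYP79B2 stood at 27.8, 20.2 and 14.5 CPM in flowers and at 28.3, 30.6 and 27.9 CPM in rosette buds. It reached 141, 114 and 65.6 CPM in sink leaves and 81.0, 81.0 and 65.3 CPM in source leaves, so every wild-type leaf library was above every flower and bud library while the leaf groups overlapped. CYP79B3 had the same order, with 15.1 ± 1.35 CPM in flowers, 38.0 ± 5.93 in buds, 118 ± 13.9 in source leaves and 120 ± 29.8 in sink leaves.

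The second-step genes of wild type also stood higher in leaves. CYP71A13 stood at 4.38, 3.88 and 1.79 CPM in flowers and at 0.876, 3.26 and 0.870 CPM in buds. It stood at 12.4, 44.8 and 22.0 CPM in sink leaves and at 24.6, 21.5 and 12.4 CPM in source leaves, where each library exceeded all flower and bud libraries. CYP71A12, of the same coding length, was lower than CYP71A13 in leaves, with 5.76 ± 3.24 CPM in sink leaves and 4.28 ± 1.50 in source leaves, and stood at 1.22 ± 0.598 in flowers and 2.18 ± 0.678 in buds. PAD3, the last step, was at 6.53 ± 3.01 CPM in flowers and 6.08 ± 3.95 in buds against 60.6 ± 35.7 in sink leaves and 41.0 ± 15.7 in source leaves. Replicate 2 of wild-type sink leaves held the highest wild-type value of CYP71A12, CYP71A13 and PAD3.

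**Figure D1:**
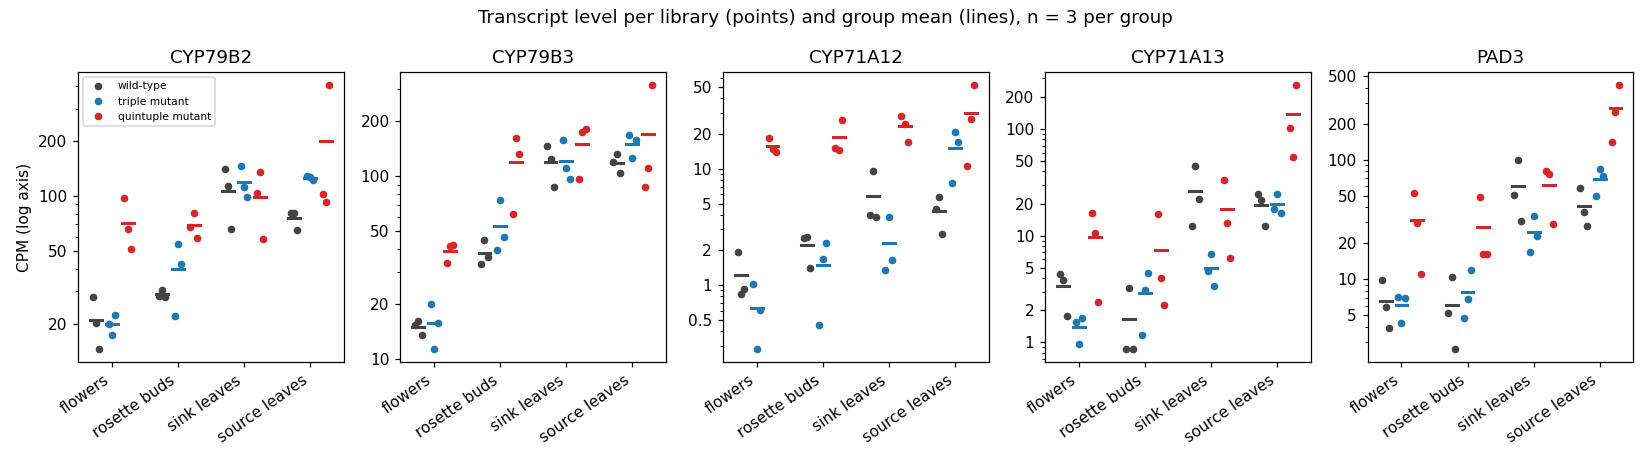
Level of each pathway gene in CPM (vertical log axis) in flowers, rosette buds, sink leaves and source leaves, with 1 point per library, a line at the mean of the 3 libraries of a group, and a colour for each genotype. All quintuple mutant points of CYP71A12 lie above the wild-type points of the same tissue, and 1 source leaf library of the quintuple mutant, at 407 CPM of CYP79B2, stands above the other 2.

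In the quintuple mutant CYP71A12 was above wild type in all 4 tissues. In flowers it stood at 18.3, 14.9 and 13.9 CPM, against 1.90, 0.828 and 0.916 CPM in wild type. In buds it stood at 14.9, 14.3 and 26.3 CPM, against 2.55, 2.60 and 1.40 CPM. No library of either tissue overlapped with wild type, and the means were far apart relative to the SD of each group. In sink leaves the values were 28.4, 24.2 and 16.9 CPM, against 3.96, 9.49 and 3.81 CPM. In source leaves they were 10.4, 26.8 and 52.2 CPM, against 4.45, 5.69 and 2.71 CPM. The leaf groups did not overlap either, although the quintuple mutant source leaves spread widely. The fitted log2 differences were 3.72 ± 0.33 (SE) in flowers, 3.14 ± 0.37 in buds, 2.79 ± 0.57 in source leaves and 2.07 ± 0.38 in sink leaves. With any 1 library left out they stayed between 3.43 and 4.12 in flowers, 2.78 and 3.29 in buds, 2.12 and 3.20 in source leaves, and 1.84 and 2.62 in sink leaves. All 3 libraries of the mutant lay above all wild-type libraries in 25.9% of tested genes in flowers, 17.3% in buds, 22.4% in source leaves and 20.5% in sink leaves.

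CYP71A13, the neighbouring gene, did not follow CYP71A12 in every tissue of the quintuple mutant. In source leaves it stood at 103, 54.2 and 258 CPM, above the 24.6, 21.5 and 12.4 CPM of wild type without overlap (log2 difference 2.81 ± 0.56). This was its highest group, and each of its libraries was above every library of the next group in order, wild-type sink leaves. In flowers it stood at 16.4, 10.6 and 2.39 CPM, and in buds at 15.8, 4.04 and 2.25 CPM. In both tissues 1 or more libraries overlapped with wild type, and the log2 differences, 1.60 ± 0.67 and 2.18 ± 0.86, had large errors. Replicate 1 held the highest value in both, and without it the differences were 0.91 and 0.98. In sink leaves the 33.5, 13.2 and 6.22 CPM overlapped with wild type (log2 difference -0.51 ± 0.64, between -1.40 without mutant replicate 1 and 0.10 without wild-type replicate 2).

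PAD3 in the quintuple mutant was above wild type in 3 tissues. In source leaves it stood at 142, 249 and 423 CPM, against 58.4, 36.8 and 27.8 CPM in wild type. In flowers it stood at 53.0, 29.4 and 11.1 CPM, against 9.81, 5.88 and 3.89 CPM. In buds it stood at 49.2, 16.4 and 16.2 CPM, against 5.25, 10.4 and 2.61 CPM. None of these groups overlapped with wild type, and in flowers and buds replicate 1 was well above the other libraries of its group. The log2 differences were 2.71 ± 0.44 in source leaves, 2.31 ± 0.59 in flowers and 2.21 ± 0.63 in buds, and without replicate 1 those of flowers and buds were 1.59 and 1.48. In sink leaves the values of 80.8, 76.5 and 28.9 CPM lay within the wild-type range of 30.5 to 100 CPM or just under it, with a log2 difference of 0.09 ± 0.49.

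In every flower and bud library of the quintuple mutant, both first-step genes were above all wild-type libraries of the tissue. In flowers CYP79B2 stood at 97.2, 66.1 and 51.0 CPM, with a log2 difference of 1.82 ± 0.32. CYP79B3 stood there at 33.4, 41.7 and 42.0 CPM, with a difference of 1.41 ± 0.13. Neither gene overlapped with wild type in flowers. In buds CYP79B2 stood at 67.7, 80.4 and 59.0 CPM (1.30 ± 0.15) and CYP79B3 at 62.4, 162 and 132 CPM (1.70 ± 0.36), again without overlap. In sink leaves both genes overlapped with wild type, with differences of -0.05 ± 0.35 and 0.38 ± 0.27. In source leaves CYP79B2 stood at 103, 92.7 and 407 CPM and CYP79B3 at 88.0, 111 and 316 CPM. Replicate 3 carried those means: without it the log2 difference of CYP79B2 was 0.37 in place of 1.38 ± 0.54, and that of CYP79B3 was -0.25 in place of 0.51 ± 0.44.

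In edgeR quasi-likelihood tests adjusted over all tested genes, at a threshold of 0.05, 4 of the 5 members were under the threshold in quintuple mutant flowers, beside 38.6% of all tested genes in either direction and 19.7% higher in the mutant. The count was 2 in buds beside 2.27% (1.70% higher), 1 in sink leaves beside 24.8% (11.9% higher) and 3 in source leaves beside 18.0% (9.19% higher), and each called member was above wild type. CYP71A12 was called in all 4 tissues, CYP79B2 in flowers and buds, and CYP79B3 in flowers. PAD3 was called in flowers and source leaves, and CYP71A13 in source leaves. In buds PAD3 and CYP79B3 were not called (adjusted p = 0.0902 and 0.0599 in edgeR), although their libraries did not overlap with wild type. All 5 members passed the filter on low counts in every comparison, and since the genes were chosen with these contrasts in view, nothing is read from these counts. With 1 library left out the count was 0 to 4 in buds, with 0 without any wild-type library or mutant replicate 2. In source leaves it was 0 without any of the wild-type libraries, 2 without mutant replicate 2 and up to 4. In flowers it was 3 to 5.

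In the triple mutant CYP71A13 lay below wild type in sink leaves and flowers, CYP71A12 and CYP79B2 lay above it in source leaves, and every other member and tissue overlapped with wild type. Over all tested genes the triple mutant libraries all lay above wild type in 18.2% in flowers, 19.1% in buds, 17.8% in source leaves and 18.7% in sink leaves, and all below it in 24.5%, 18.9%, 18.9% and 24.4%. CYP71A13 in sink leaves stood at 4.69, 6.77 and 3.40 CPM, below the 12.4, 44.8 and 22.0 CPM of wild type without overlap (log2 difference -2.35 ± 0.44). In flowers it stood at 1.56, 0.966 and 1.69 CPM, below the 4.38, 3.88 and 1.79 CPM of wild type (-1.23 ± 0.35), and there the nearest libraries differed by little. In buds and source leaves it overlapped with wild type, at 0.82 ± 0.59 and 0.03 ± 0.24.

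CYP71A12 in triple mutant source leaves stood at 7.46, 20.4 and 16.9 CPM, above the 4.45, 5.69 and 2.71 CPM of wild type without overlap (log2 difference 1.84 ± 0.37). In sink leaves it stood at 1.35, 3.86 and 1.64 CPM and overlapped with wild type by 1 library (-1.27 ± 0.48). Without wild-type replicate 2, the highest wild-type library, that difference was -0.72. In flowers and buds CYP71A12 overlapped with wild type, at -0.90 ± 0.48 and -0.55 ± 0.49. PAD3 overlapped with wild type in all 4 tissues, with 24.7 ± 8.78 CPM against 60.6 ± 35.7 in sink leaves (-1.22 ± 0.40) and 69.0 ± 17.2 against 41.0 ± 15.7 in source leaves (0.77 ± 0.27).

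CYP79B2 in triple mutant source leaves stood at 129, 127 and 122 CPM, above every wild-type library (log2 difference 0.75 ± 0.12). This is a small difference beside very tight groups, and leaving out any library kept it between 0.69 and 0.80. CYP79B2 overlapped with wild type in flowers (-0.05 ± 0.20), buds (0.46 ± 0.27) and sink leaves (0.23 ± 0.25). CYP79B3 overlapped in flowers, buds and sink leaves, at 0.09 ± 0.17, 0.49 ± 0.22 and 0.09 ± 0.22, and also in source leaves, at 0.37 ± 0.14.

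In the triple mutant 1 member was under the threshold in flowers beside 26.6% of all tested genes (15.6% lower in the mutant), and 1 in sink leaves beside 24.5% (12.1% lower), in both cases CYP71A13 and below wild type. In source leaves 2 members, CYP79B2 and CYP71A12, were under it and above wild type, beside 16.4% (8.86% higher), and 0 members in a fit of all 9 libraries of the tissue. That fit also called 0 members in flowers. In buds the edgeR count was 0 beside 16.5%, with 0 at an unadjusted p under 0.05 and 0 with DESeq2. The call in flowers was lost without wild-type replicate 1 or 2 or mutant replicate 1 or 2, and in buds 1 member was called without mutant replicate 1. In sink leaves 2 were called without wild-type replicate 3 or mutant replicate 2, and in source leaves the count was 1 without mutant replicate 2 and 3 without wild-type or mutant replicate 1.

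**Figure D2:**
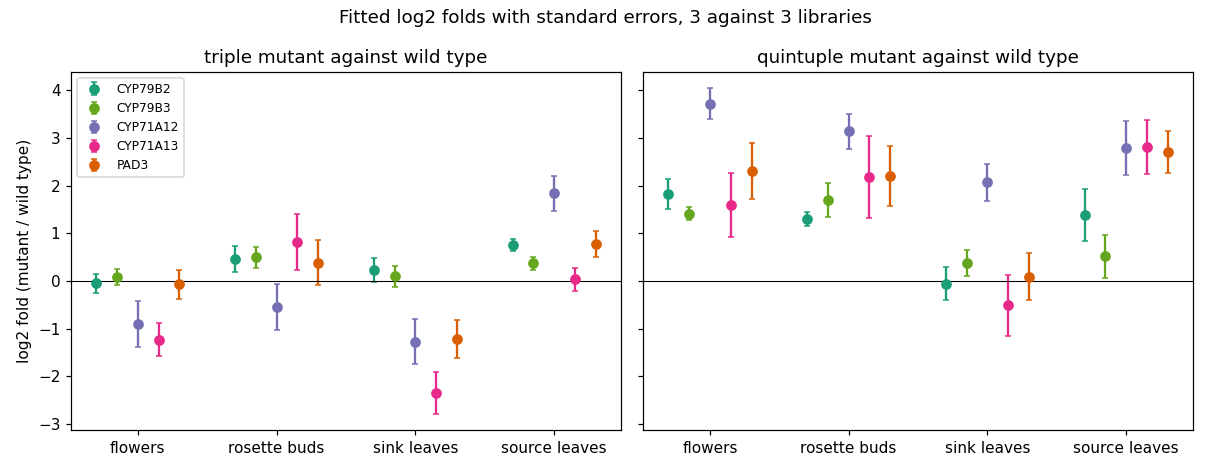
Fitted log2 difference from wild type of each pathway gene in the triple and quintuple mutant, by tissue, with bars of 1 SE from fits of 6 libraries each. CYP71A12 in the quintuple mutant lies between 2.07 and 3.72 in the 4 tissues, and CYP71A13 in the triple mutant reaches -2.35 in sink leaves.

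The balance between CYP71A12 and CYP71A13 differed between tissues and genotypes. CYP71A12 made up 18.8 ± 4.90% of the counts of the pair in wild-type sink leaves and 18.1 ± 2.81% in source leaves. In flowers its share was 27.3 ± 8.57% and in buds 60.1 ± 15.1%. The wild-type bud libraries held 74.5, 44.3 and 61.7%, so CYP71A12 was the larger of the pair in 2 of 3. In the quintuple mutant its share was 65.5 ± 17.5% in flowers and 61.2 ± 13.9% in sink leaves, and the lowest library of each group, at 52.7% and 45.9%, was above the highest of wild type, at 33.9% and 24.3%. In quintuple mutant buds the share was 48.6, 78.0 and 92.1% and overlapped with wild type. In quintuple mutant source leaves, where both genes were higher than in wild type, the share was 19.7 ± 12.2% and overlapped with wild type. In the triple mutant the share in source leaves was 29.4, 45.4 and 50.6%, above the wild-type libraries at 15.3, 20.9 and 18.0%. In triple mutant buds it was 32.2 ± 4.11%, below every wild-type bud library. The widest Wilson 95% interval of a library, which covers counting error only, was 11.4 to 39.8%, from 31 counts in a flower library of the triple mutant.

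The sum of both genes showed less than CYP71A12 alone where the pair moved apart. Fitted as a single row, the pair differed from wild type by 2.52 ± 0.38 (log2) in quintuple mutant flowers, 2.80 ± 0.38 in buds, 2.81 ± 0.52 in source leaves and 0.41 ± 0.48 in sink leaves. For the triple mutant the sum differed by -1.14 ± 0.33 in flowers, 0.20 ± 0.48 in buds, 0.57 ± 0.26 in source leaves and -2.09 ± 0.44 in sink leaves. The labels do not say how the authors' counting divided reads between these genes.

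**Figure D3:**
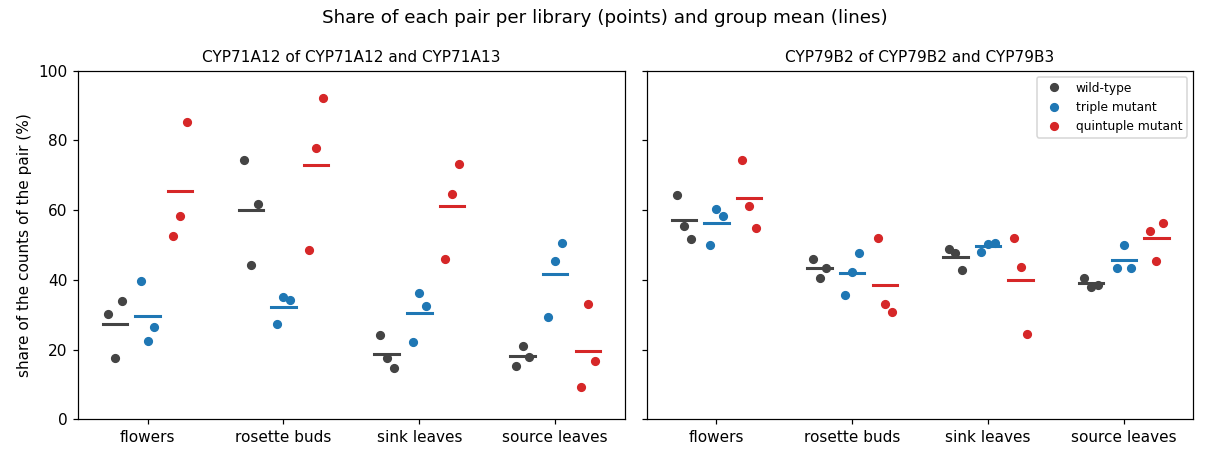
Share of CYP71A12 in the counts of CYP71A12 and CYP71A13 (left) and of CYP79B2 in those of CYP79B2 and CYP79B3 (right), in percent, with 1 point per library and lines at group means. The quintuple mutant flowers (65.5%) and sink leaves (61.2%) stand above wild type on the left. On the right the group means run from 38.6% to 63.5%. In source leaves the triple (45.7%) and quintuple mutant (51.9%) stand there above wild type (39.0%) without overlap.

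Genes that act around the core route were tested in the same fits: 11 of further camalexin steps and transport, 10 regulators, 8 of tryptophan synthesis and 13 of the indole glucosinolate branch. These lists were chosen with earlier results of these data known, so their counts are given as a description and not as a test. In quintuple mutant flowers 28 of 40 tested genes of these lists rose and 3 fell, beside 38.6% of all tested genes called and 19.7% higher. For 5 of the 31 called genes (CYP71A18, ANAC042, CYP81F2, IGMT1 and IGMT2) only 1 genotype reached the low-count minimum in all of its libraries, so they were tested because of the group in which they are high; without them 24 of 35 rose and 2 fell. Of the steps and transport 6 of 10 rose and 1 fell, with a median log2 difference of 1.63 beside 0.01 for all tested genes. The fall is that of CYP71A18, tested only because of its wild-type counts, and without it 6 of 9 rose and 0 fell (median 1.72). ABCG36 (PEN3), a plasma membrane exporter of defence compounds, rose from 74.9 ± 14.4 to 598 ± 233 CPM (log2 3.04 ± 0.34, adjusted p = 0.000944 in edgeR). GSTF6, a glutathione transferase linked to the conjugation step whose neighbour GSTF7 is a close copy, rose by 2.76 ± 0.38. CYP71B6, which acts on indole-3-acetonitrile, rose by 1.55 ± 0.17, and AT1G26380 by 2.68 ± 0.45. CYP71A18, the called gene that was lower, stood at 0.261 ± 0.154 CPM, against 1.26 ± 0.342 CPM in wild type.

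Of the regulators 7 of 9 rose in quintuple mutant flowers and none of the 9 fell. The 7 include ANAC042, which was tested only because of its mutant counts, and without it 6 of 8 rose. WRKY33, the WRKY factor known to bind the CYP71A13 and PAD3 promoters, rose from 14.6 ± 6.57 to 94.5 ± 46.0 CPM (log2 2.74 ± 0.53, adjusted p = 0.00685 in edgeR). MYB51, an activator of indole glucosinolate genes, rose by 3.76 ± 0.44. ANAC042, a NAC factor needed for full camalexin induction, stood at 3.79 ± 1.25 CPM, against 0.832 ± 0.427 in wild type, and its call is not read as a result. The kinase MPK3, which acts on WRKY33, rose by 1.78 ± 0.44, while its partner MPK6 stood at 0.05 ± 0.13 and MYB34 at 0.34 ± 0.52. Of tryptophan synthesis 4 of 8 rose, with ASA1, the anthranilate synthase subunit that starts the route, at 2.00 ± 0.31 and TRP1 at 1.29 ± 0.10. Of the indole glucosinolate branch 11 of 13 rose and 2 fell. The 11 include CYP81F2, IGMT1 and IGMT2, which were tested only because of their mutant counts. Without them 8 of 10 rose and 2 fell. CYP83B1, which draws on the same oxime as the CYP71A pair, rose from 67.4 ± 2.77 to 303 ± 60.0 CPM (2.21 ± 0.18).

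In quintuple mutant source leaves 12 of 39 tested genes rose and none of the 39 fell, beside 18.0% of all tested genes called and 9.19% higher. Of the 12, 7 were among the 10 steps and transport genes (median 1.33). One of these is CYP82C2, which was tested only because of its mutant counts, and without it 6 of 9 rose (median 1.30). ABCG40, another exporter of the same family, rose from 17.5 ± 11.1 to 331 ± 310 CPM (log2 4.21 ± 0.77), GSTF6 from 309 ± 46.0 to 802 ± 119 CPM (1.37 ± 0.20) and ABCG34, a camalexin exporter, by 1.30 ± 0.21. Of the regulators ANAC042 (1.54 ± 0.26) and WRKY33 (0.95 ± 0.19) rose, and the other 7 were not called. ASB1 (1.24 ± 0.32) and TSA1 (0.98 ± 0.26) rose among the tryptophan genes, and IGMT2 rose in the indole glucosinolate branch, where its near copy IGMT1 makes the value uncertain. Without any 1 of the wild-type libraries no listed gene was called, and without quintuple mutant replicate 1, 2 or 3 the number was 25, 5 or 15.

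In quintuple mutant buds GSTU4, a glutathione transferase, was the single gene of these lists that was called in 40 tested (log2 2.60 ± 0.31), beside 2.27% of all tested genes. The regulators had 0 calls of 9 in edgeR, with 3 at an unadjusted p under 0.05 and 2 with DESeq2. The tryptophan genes had 0 of 8 (1 and 1), and the indole glucosinolate branch 0 of 13 (3 and 3). In sink leaves, beside 24.8% of all tested genes called, ABCG34 (1.29 ± 0.21) and GSTU4 (1.53 ± 0.44) rose among the steps and transport. These are 2 of 9 without CYP82C2, which was also called but tested only because of its mutant counts. Of the indole glucosinolate branch 4 of 12 genes fell, beside 2484 of 19198 tested genes lower in the mutant. CYP81F2, which modifies indole glucosinolates, fell there by 1.07 on the log2 scale. The sink leaf regulators had 0 calls of 9 (2 at an unadjusted p under 0.05 and 1 with DESeq2), and the tryptophan genes 0 of 8 (0 and 0). GSTU4 rose in all 4 tissues of the quintuple mutant. The totals of 1 of 40 in buds and 7 of 39 in sink leaves are near or under the shares over all genes. Nothing is read from these totals about the lists. In buds no listed gene was called without any 1 of the wild-type libraries or mutant replicate 2, and 18 were called without mutant replicate 1. In sink leaves the 7 calls became 3 without wild-type replicate 3 and 4 without wild-type replicate 1 or mutant replicate 2.

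CYP82C2, which hydroxylates the cyanogenic indole compound of the CYP71A12 branch, was nearly without counts in wild type, with 1, 7, 3 and 4 counts over the 3 libraries of flowers, buds, sink leaves and source leaves. The quintuple mutant had 38, 506, 176 and 707 counts in the same order, and the triple mutant 0, 25, 0 and 279. By library, source leaves held 109, 531 and 67 counts in the quintuple mutant and 16, 155 and 108 in the triple mutant, against 0, 3 and 1 in wild type. No wild-type library reached the low-count minimum, so the gene was tested only where the mutant libraries are high. Its calls in source leaves of both mutants and in sink leaves of the quintuple mutant are therefore not read as results, and no fold is given against so few counts. MYB122, a further listed regulator, did not pass the filter in any comparison.

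In triple mutant sink leaves 1 of 38 tested genes of these lists rose and 11 fell, beside 24.5% of all tested genes called and 12.1% lower. Of the regulators 5 of 9 fell, with ERF72 going from 548 ± 181 to 153 ± 42.7 CPM (log2 -1.77 ± 0.28, adjusted p = 0.00352 in edgeR), WRKY18 at -1.37 ± 0.23 and ANAC042 at -1.44 ± 0.29. WRKY33 stood at 0.02 ± 0.25. Of the steps and transport 3 of 9 fell: ABCG36 from 1557 ± 283 to 712 ± 139 CPM, AT1G26380 and GSTF6. IGMT1, IGMT2 and PEN2, a myrosinase that cleaves indole glucosinolates at sites of attack, fell in the glucosinolate branch. ERF72, an ethylene response factor, fell in all 4 tissues of the triple mutant.

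In triple mutant source leaves 8 of 39 tested genes rose and 5 fell, beside 16.4% of all tested genes called and 8.86% higher, and without CYP82C2 7 of 38 rose. Tryptophan synthesis accounted for 5 of the 8, with TSA1 (log2 0.60 ± 0.12), ASA1 (0.49 ± 0.12), ASB1 (0.48 ± 0.11) and TSB2 (0.53 ± 0.15) among them, each a small difference beside tight replicates. WRKY18 (-0.94 ± 0.14) and ERF72 (-1.24 ± 0.21) fell. In triple mutant flowers 4 of 38 rose and 7 fell, beside 26.6% of all tested genes called, and in buds 3 of 39 rose and 5 fell, beside 16.5%. Both shares are near those over all genes, so nothing is read from them about the lists. GGP1, a peptidase that trims the glutathione conjugate, fell by 0.50 on the log2 scale in buds. The 13 calls in source leaves became 4 without mutant replicate 2, and 8 without wild-type replicate 1 or 3. The 11 calls in flowers became 5 without wild-type replicate 2 and 7 without mutant replicate 3, and the 8 in buds became 2 without wild-type replicate 1, 4 without mutant replicate 1 and 3 without mutant replicate 2 or 3.

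**Figure D4:**
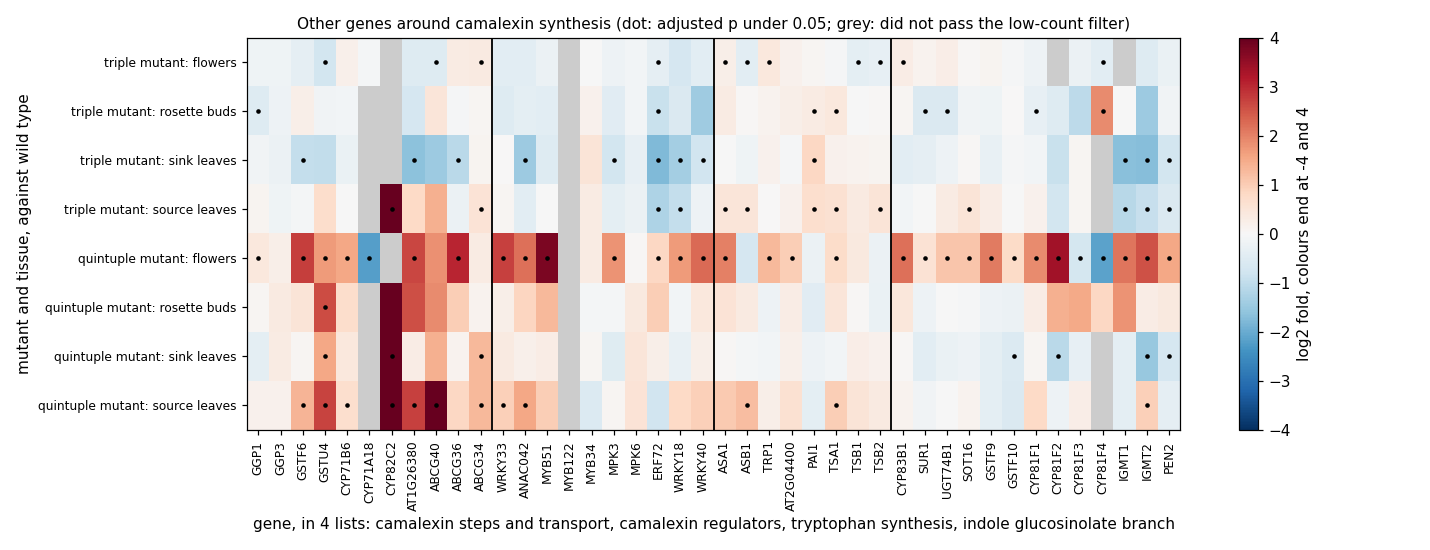
Fitted log2 difference from wild type (colour scale, ending at -4 and 4) of the genes of the 4 lists around the core route (columns) in the 8 comparisons (rows), with a dot where the adjusted p was under 0.05 and grey where a gene did not pass the filter. The row of quintuple mutant flowers holds 31 dots and that of quintuple mutant buds 1, and the dark CYP82C2 column rests on 3 to 7 wild-type counts.

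Other transcripts moved in the same samples. The counts of marker calls below stand beside these shares of all tested genes called, in the order flowers, buds, sink leaves, source leaves. The shares were 26.6%, 16.5%, 24.5% and 16.4% in the triple mutant and 38.6%, 2.27%, 24.8% and 18.0% in the quintuple mutant. Of 11 salicylic acid and immune markers 8 rose and 1 fell in quintuple mutant flowers (summed level 397 to 737 CPM, against 130 to 186 in wild type). In quintuple mutant source leaves 6 of 11 rose (5025 to 9124 CPM, against 2169 to 4577), and in triple mutant sink leaves 9 of 11 fell (939 to 1170 CPM, against 1869 to 6159). SARD1, an activator of salicylic acid synthesis, rose by 5.58 ± 0.56 in the first, PR1 by 2.40 ± 0.52 in the second, and PAD4 stood at -1.40 ± 0.17 in the last. In quintuple mutant sink leaves the markers summed to 2086 to 3400 CPM, within the wild-type range, and 1 of 11 fell. In quintuple mutant buds 0 of 10 tested were called in edgeR, with 4 at an unadjusted p under 0.05 and 2 with DESeq2. The sum of the 11 there was 496 to 613 CPM, against 343 to 433 in wild type. Triple mutant source leaves, where CYP71A12 and CYP79B2 were called, had 0 rises and 2 falls of 11. Triple mutant flowers had 1 rise and 1 fall of 11, and triple mutant buds 1 fall of 9. None of the 11 markers was at 0 in any of these groups, and their part in the values of the pathway genes was not tested.

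Of the 7 handling and wounding markers 2 of 6 tested rose in quintuple mutant flowers, beside 38.6% of all tested genes called. In quintuple mutant sink leaves 3 of 7 fell, beside 24.8%. In quintuple mutant source leaves 2 rose and 1 fell, beside 18.0%. In triple mutant flowers, where CYP71A13 was called, 3 of 6 fell, beside 26.6%. Triple mutant source leaves had 1 fall among 7 tested markers, beside 16.4%, and sink leaves 1 among 6, beside 24.5%. Quintuple mutant buds had 0 calls of 7 in edgeR, beside 2.27%, with 4 at an unadjusted p under 0.05 and 4 with DESeq2. Triple mutant buds had 0 of 6 (0 and 0), beside 16.5%. With so few markers nothing is read from these counts.

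Of 7 leaf photosynthesis markers 6 rose in quintuple mutant flowers, with a summed level of 16181 to 32846 CPM against 11553 to 12778 in wild type, and 5 rose in triple mutant flowers (14716 to 16147 CPM). All 7 fell in quintuple mutant sink leaves. In quintuple mutant source leaves they summed to 24811 to 56632 CPM, against 71182 to 102434 in wild type, with 1 fall in edgeR and 7 calls with DESeq2. In quintuple mutant buds they summed to 4057 to 18684 CPM, against 23718 to 33750, with 0 calls in edgeR, 3 at an unadjusted p under 0.05 and 4 with DESeq2.

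The 5 flower markers summed to 166 to 314 CPM in quintuple mutant flowers, against 706 to 814 in wild type, with 1 rise and 2 falls. In triple mutant flowers they summed to 343 to 381 CPM, with 2 rises and 1 fall. AGP11 weighed most in the wild-type sum, and its mean went from 567 CPM there to 134 in the triple and 72.0 in the quintuple mutant. The other flower markers did not share that fall in triple mutant flowers. There AP3 went from 65.9 to 62.8 CPM, PI from 97.5 to 104, AG from 32.0 to 45.9 and AMS from 1.19 to 12.8. In quintuple mutant flowers AP3 (38.2), PI (74.3) and AG (22.6) were lower than in wild type and AMS (38.0) was higher. Of the 4 bud markers 3 rose in quintuple mutant flowers, where they summed to 104 to 214 CPM against 35.6 to 44.9 in wild type, and HB21, a homeobox gene of axillary buds, went from 0.711 ± 0.215 to 42.1 ± 22.2 CPM. All 4 bud markers fell in triple mutant buds, with a summed level of 102 to 168 CPM against 297 to 375 in wild type. In these whole-organ samples fewer cells of a type and less RNA per cell cannot be told apart, and the part of organ makeup or handling in the pathway values was not tested.

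Across the 12 group means, CYP71A13 and PAD3 had the most alike patterns among the members (Pearson r = 0.97 of log2(CPM + 1), n = 12 groups). CYP79B2 correlated with PAD3 at 0.93 and with CYP79B3 at 0.92, and CYP71A12 with the other members at 0.70 to 0.84. Among 18696 genes with a mean of at least 5 CPM in some group, those most like PAD3 were AT2G04070 (0.99), DTX1 (0.98), MSRB8 (0.98) and AT1G26380 (0.98). MSRB8 was also among the 4 most like CYP71A13 (0.97), with SBT3.5 (0.98), AATP1 (0.98) and TAT3 (0.97). Those most like CYP71A12 were UGT73B5 (0.97), SBT3.3 (0.96), AT4G01870 (0.96) and UGT74F2 (0.96), and those most like CYP79B2 were NAC083 (0.97), GSTF7 (0.97), B120 (0.97) and MC2 (0.96). CYP79B3 was most like ABCC1 (0.98), ABCB21 (0.98), RGXT2 (0.97) and AT4G29050 (0.97). These correlations describe 12 means that share tissues and libraries. Of the 4 genes named for each member, the rank correlation kept 1 for CYP71A12, 1 for CYP71A13 and 0 for the others.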

How the data were processed

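Poly-A RNA libraries were made from 500 ng of total RNA with a stranded kit, per the labels' protocols. The authors deposited raw counts by locus, per the file headers: 8 tables, each with the 6 libraries of 1 mutant and the wild type of 1 tissue. The submitters' processing notes name TAIR10, R 3.5.1, DESeq2, edgeR, SAMtools 0.1.18 and Salmon 0.7.2 without a role. The use of strand is not stated. Wild-type columns were identical in both tables of a tissue. No library copied another of its group (lowest chi-square per gene 5.83).

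Tests were run with edgeR 4.0.16 in R 4.3.3 (filterByExpr with its minimum of 10 counts, TMM, estimateDisp, glmQLFit and glmQLFTest on 6 libraries, Benjamini-Hochberg adjustment over all tested genes, threshold 0.05), limma 3.58.1 and DESeq2 1.42.0, and summarised with Python 3.11.15, pandas 2.3.3 and biopython 1.88. The SE is the log2 fold divided by the root of F. "Rose" and "fell" mean called genes. The procedure was run on counts simulated from flower libraries with the same spread setting for every gene. That run does not cover groups whose libraries spread more widely. CPM were computed here. Sequences and gene models came from RefSeq TAIR10.1. The tables hold no coordinates. Members and lists were chosen with earlier results of these data known. Named were all members, tested genes of the steps and regulator lists, up to 4 called genes per other list with the smallest p, and 4 genes per member by likeness. Alternatives were DESeq2 size factors, no filter, the DESeq2 test, replicate blocks, 9-library fits, left-out libraries, the summed CYP71A pair, other CPM scalings, rank correlation and a pseudocount of 0.5 in place of 1. Intervals cover counting error only. The p-values set each difference against the spread between these samples. The labels call replicates biological without naming separate plants, so whether that spread covers differences between plants is not known.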

Additional observations from a re-analysis of the deposited data

How the results depend on the processing

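Counts of calls depended on the fit, while no alternative reversed a call. Values are given in the order flowers, buds, sink leaves, source leaves. The main counts were 5711, 3298, 4621 and 3076 genes in the triple mutant and 8387, 464, 4769 and 3411 in the quintuple mutant, and in the lists around the core route 11, 8, 12 and 13, and 31, 1, 7 and 12. Fits of all 9 libraries of a tissue gave 1638, 0, 2507 and 232 genes in the triple mutant, and 3870 in quintuple mutant buds and 5300 in source leaves. The 0 in buds came beside 3620 genes with the DESeq2 test and 2394 at an unadjusted p under 0.05 in the fit itself. The same fits called 0 members in triple mutant flowers and source leaves and 4 in quintuple mutant buds, and 1 listed gene in triple mutant flowers, 0 in buds, 0 in source leaves, 10 in quintuple mutant buds and 20 in source leaves. The DESeq2 test called 4027 genes in quintuple mutant buds and 5343 in source leaves, 5 members in those buds, 2 in triple mutant sink leaves, and 12 and 21 listed genes in quintuple mutant buds and source leaves. DESeq2 size factors, or no filter on low counts, gave 2 members in triple mutant sink leaves, and no filter 3 listed genes in quintuple mutant buds. Replicate numbers did not pair the libraries: in no comparison did all 3 same-numbered pairs correlate above 0.1, and in triple mutant sink leaves every library correlated best with its own number (0.21, 0.088 and 0.20), which is a hint from the data only. With the replicate block, 802 genes were called in triple mutant buds, 1353 in source leaves, and 258, 2675 and 25 in quintuple mutant buds, sink leaves and source leaves. The block gave 3 members in triple mutant sink leaves and 0 in quintuple mutant source leaves, and 2 and 7 listed genes in triple mutant buds and source leaves and 2 and 1 in quintuple mutant buds and source leaves. With 1 library left out, all genes called ran from 3957 to 5140, 1148 to 2942, 2627 to 4535 and 766 to 4022 in the triple mutant, and from 5541 to 11184, 0 to 10874, 1774 to 5326 and 29 to 7869 in the quintuple mutant. Members called ran from 0 to 1, 0 to 1, 1 to 2 and 1 to 3, and from 3 to 5, 0 to 4, 1 to 1 and 0 to 4. Listed genes called ran from 5 to 11, 2 to 7, 10 to 17 and 4 to 18, and from 25 to 36, 0 to 18, 3 to 8 and 0 to 25. The cause of these shifts was not tested. Over these alternatives, the called genes of all lists kept their call in 1556 recomputed results and lost it in 468. DESeq2 scaling moved 0 of 60 group means of the members by more than their SD, and library totals alone moved 13, by 0.683 to 1.31 times. The mean levels of CYP71A12 and CYP71A13 were below 5 CPM in several groups, and the smallest difference that 3 libraries per group can show was not computed.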
